A study of Mus musculus with 19 samples.

Results

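ERVK elements other than IAP are the copies of class II endogenous retroviruses that remain in the mouse genome once the intracisternal A particles are set aside. They were taken from a count table of RepeatMasker elements outside genes, as every element whose class is LTR/ERVK and whose repeat name lacks IAP. This gave 221906 elements of 257 repeat names, out of 2634743 elements of 1241 names in all, or 8.42% of the elements. Another 25340 ERVK elements of 25 names were IAP and were left out. A repeat name stands for 1 consensus sequence, so all copies that resemble it are counted together. Of the 257 names, 36 were internal parts, which hold or once held the retroviral genes, and 221 were long terminal repeats (LTRs), which carry the promoter and the polyadenylation signal. Most elements were short, with a median length of 290 bases (quartiles 121 and 490), and 19.3% had no read in any RNA library.

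An intact ERVK copy is an internal part with an LTR at either end, and recombination between the LTRs leaves a solitary LTR behind. ETn elements, the early transposons, are ERVK copies that lack working retroviral genes and move with the proteins of their coding relative MusD. They are known for transcription in early embryos and in ES cells. In many cells such copies are kept silent by KRAB zinc finger proteins, TRIM28 and SETDB1, which place H3K9 methylation, and by DNA methylation.

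The study asked whether cystic embryoid bodies (EBs), hollow spheres grown from mouse ES cells, resemble yolk sac endoderm (ysE). RNA was counted over repeats in 6 libraries: E9.25 ysE (replicates A and B), E9.25 yolk sac mesoderm (A and B), and cystic EBs collected on d10 and on d15 (replicate B of each day, used here as 2 replicates of 1 group). Whole-genome bisulphite sequencing gave CpG methylation in a CxF and a FxC library, from reciprocal crosses of CAST and FVB, for each of 3 sources. These were ysE and fetal liver, both taken at E12.5, and cystic EBs grown to d15. Mouse tissue for RNA was FVB with whole litters pooled, and the mesoderm was collected along with its vessels and basement membrane after manual separation with Dispase. Cystic EBs for RNA were grown from 1 female ES clone, JN, of a C57Bl/6x129 cross, while those for methylation came from 1 male clone of each cross, CF clone C2 and FC clone A2. No group carried a deletion or a transgene, and as each tissue sample pooled a litter and the cystic EB replicates are 2 days of 1 clone, p-values measure the spread between these libraries. In every RNA comparison with cystic EBs, strain and tissue cannot be told apart, because all cystic EB libraries come from the C57Bl/6x129 clone and all tissue libraries from FVB. Sex cannot be told apart from tissue either, as the clone is female and the tissues are whole litters. Of member elements 4.57% lie on chromosome Y.

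Most reads of the main result lie in internal ETn parts, whose sequence was not used here, so LTRs of the ETn group, which hold their promoter, are shown. Matching the elements to RefSeq gene starts (build GRCm38.p6, the sequence of mm10) placed at least 100 of the 250 bases before the start inside a member for 506 of 32851 windows, of 472 genes. Shown here are those windows, 5′ to 3′ on the strand of the gene, for 1 RLTRETN_Mm copy, 3 ERVB7_1-LTR_MM copies and 1 RMER16-int copy with reads, 2 groups that gain reads in cystic EBs. Capitals mark AATAAA, the polyadenylation signal, and TATAAA, the TATA box sequence, on the strand printed.
Gm38894, chr6:124797094-124797343, minus strand, in RLTRETN_Mm: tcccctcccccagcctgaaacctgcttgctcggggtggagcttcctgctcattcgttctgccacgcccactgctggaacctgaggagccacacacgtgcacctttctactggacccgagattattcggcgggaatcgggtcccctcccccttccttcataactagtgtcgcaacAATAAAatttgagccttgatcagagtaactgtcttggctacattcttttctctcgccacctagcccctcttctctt
Gm34581, chr12:50980463-50980712, plus strand, in ERVB7_1-LTR_MM: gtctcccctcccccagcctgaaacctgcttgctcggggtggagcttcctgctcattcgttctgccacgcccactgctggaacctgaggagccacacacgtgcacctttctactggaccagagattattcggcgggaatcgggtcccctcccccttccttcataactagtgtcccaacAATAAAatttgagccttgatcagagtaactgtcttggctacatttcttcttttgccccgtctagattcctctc
Gm52719, chr4:124353087-124353336, minus strand, in ERVB7_1-LTR_MM: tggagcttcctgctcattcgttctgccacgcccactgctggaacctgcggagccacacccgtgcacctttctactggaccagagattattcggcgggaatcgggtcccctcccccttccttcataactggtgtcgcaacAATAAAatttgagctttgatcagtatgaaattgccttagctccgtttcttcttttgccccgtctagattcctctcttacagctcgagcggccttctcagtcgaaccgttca
LOC108167564, chr8:128753535-128753784, minus strand, with 172 bases in ERVB7_1-LTR_MM: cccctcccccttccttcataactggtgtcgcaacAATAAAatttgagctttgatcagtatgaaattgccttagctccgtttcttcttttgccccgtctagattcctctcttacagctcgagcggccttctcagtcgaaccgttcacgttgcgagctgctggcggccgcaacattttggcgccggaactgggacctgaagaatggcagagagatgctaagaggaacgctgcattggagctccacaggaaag
Gm51895, chr11:57558327-57558576, minus strand, in RMER16-int: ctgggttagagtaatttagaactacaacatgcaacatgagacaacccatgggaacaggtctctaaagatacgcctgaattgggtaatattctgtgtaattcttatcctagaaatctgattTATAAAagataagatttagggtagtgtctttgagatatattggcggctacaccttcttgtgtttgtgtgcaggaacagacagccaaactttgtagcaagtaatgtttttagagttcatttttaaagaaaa

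The LTRs of the ETn group resembled each other although their repeat names differ. The RLTRETN_Mm copy before Gm38894 and the ERVB7_1-LTR_MM copy before Gm34581 were identical at 235 of 242 aligned bases (97.1%). The copies before LOC108167564 and Gm52719 matched over all 145 aligned bases. AATAAA on either strand was found in 188 of the 506 windows that lie in members (37.2%), against 18.1% of all windows of this length. TATAAA was found in 25.7% against 12.4%, CCAAT in 47.2% against 33.8% and GGGCGG in 8.50% against 32.7%, so the windows in members held more of the first 3 motifs and fewer of the last. AATAAA and TATAAA differ in 1 letter, and overlapping matches were each counted.

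Reads in the printed copies differed between the tissues. The element before Gm52719 held 3 and 7 reads in ysE (A and B), 17 and 33 in mesoderm, and 768 and 557 in cystic EBs (d10 and d15). The element before LOC108167564 held 19 and 25 in ysE, 60 and 67 in mesoderm, and 1212 and 786 in cystic EBs. For Gm34581 the reads were 73 and 95, 639 and 685, and 1171 and 784 in the same order. The RLTRETN_Mm element before Gm38894 held 254 and 78 reads in ysE, 194 and 271 in mesoderm, and 1702 and 1071 in cystic EBs, so its ysE and mesoderm libraries overlapped. The RMER16-int element before Gm51895 held 125 and 169, 24 and 32, and 1127 and 1172. In each of these 5 elements both cystic EB libraries held more reads than any other library, before scaling for depth. The copies were chosen from groups that gain reads in cystic EBs, so this is no separate support for that gain. As a name, RMER16-int was higher in cystic EBs than in ysE by log2 0.55 (edgeR adjusted p = 0.0197). When scaled on RefSeq transcripts it was at 0.24 and not called (adjusted p = 0.394).

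Members took a larger share of repeat reads in cystic EBs than in either tissue. Repeats of RNA genes (ribosomal, transfer and small RNAs) held 65.9% to 79.4% of the 86063967 to 188223399 counts of a library and were set aside for this share. Members then held 5.90% and 5.60% of repeat reads in ysE, 10.7% and 12.54% in mesoderm, and 20.9% and 14.8% in cystic EBs at d10 and d15. The 5 names of the ETn/MusD family accounted for most of the difference in these shares. They held 1.47% and 1.21% of repeat reads in ysE, 5.44% and 7.40% in mesoderm, and 15.6% and 9.64% in cystic EBs. All other members together stayed between 4.38% and 5.24% in the 6 libraries. They include LTR names with most reads beside ETn/MusD parts, such as ERVB7_1-LTR_MM, which also rose in cystic EBs.

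**Figure D1:**
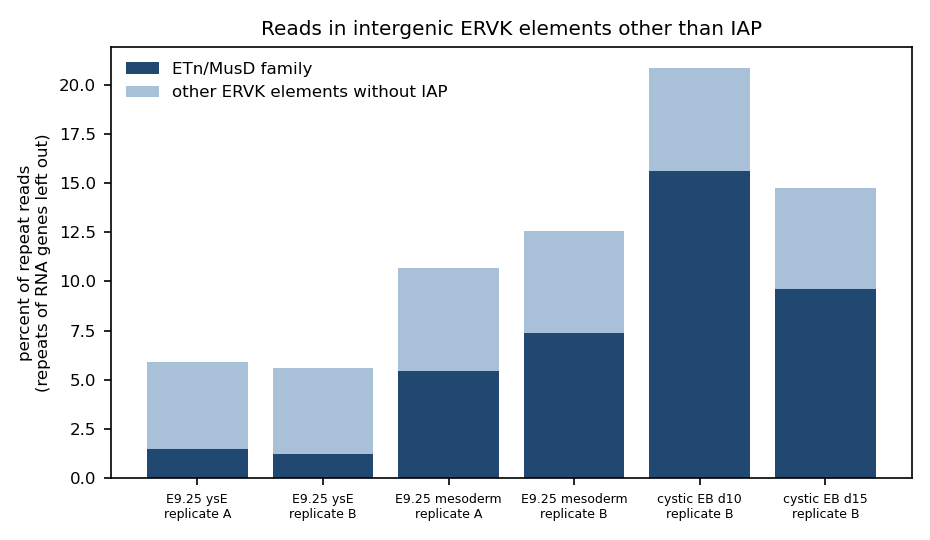
Percent of repeat reads, with repeats of RNA genes left out, that fell in ERVK elements other than IAP in each of the 6 RNA libraries, 1 bar a library. The dark part, the ETn/MusD family, runs from 1.21% to 15.6%, while the light part, the other members, stays between 4.38% and 5.24%.

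The reads were concentrated in few names. Over the 6 libraries, 2 names held 55.2% of member reads, 10 held 69.6%, and 69 names were needed for 90%. MMETn-int, the internal part of ETn, alone held 17.7% and 15.5% of member reads in ysE, 38.4% and 45.4% in mesoderm, and 57.5% and 48.7% in cystic EBs. Per length it was also the highest of the names described here, with a mean of 1015 CPM per 100 kb of elements against 320.3 for ETnERV-int, 34.3 for MMERVK10C-int and 15.3 for RLTR17B_Mm. CPM are a library's repeat counts scaled to a common total, scaled with edgeR's TMM factors.

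The reads of 6 LTR names lay mostly beside internal ETn/MusD parts. An LTR element was counted as beside such a part where the gap was at most 500 bases, a limit chosen after the values were seen. Only 1.84% of the 184970 member LTR elements met this, yet they held 24.0% of LTR reads. For RLTR13G, 99.0% of the reads lay in such elements, for ERVB4_1C-LTR_Mm 98.5%, for ERVB7_1-LTR_MM 95.9% and for RLTRETN_Mm 82.9%, followed by ERVB7_2-LTR_MM with 54.6% and RMER16A3 with 53.3%. At the locus with the most reads, the ERVB7_1-LTR_MM element chr13:113718414-113718729 (mm10) lies directly before the MMETn-int element chr13:113718730-113722014. These LTR names and the internal parts are therefore not independent readouts.

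The labelled tissues were checked against marker genes in RPKM (reads scaled to transcript length and library depth, as deposited). Afp, the fetal albumin relative of visceral endoderm, stood at 6071 and 6628 in ysE, 700.4 and 1255 in mesoderm, and 35.1 and 212 in cystic EBs. All 4 ysE markers (Afp, Ttr, Cubn, Amn) were lower in both cystic EB libraries than in ysE, with a sum of 92.8 and 395 against 7994 and 8957. The 3 ES cell markers Pou5f1, Zfp42 and Nanog summed to 137 and 84.1 in cystic EBs at d10 and d15, 5.53 and 4.82 in ysE, and 0.701 and 0.887 in mesoderm. The ysE sum was nearly all Zfp42 (5.34 and 4.55), while Pou5f1 was at 0.130 and 0.084 in ysE and 0.122 and 0.094 in mesoderm. Embryonic globins (Hbb-bh1 and Hba-x) summed to 25106 and 20194 in mesoderm against 518 and 599 in ysE. The ES cell markers and the ETn/MusD reads were both highest in cystic EBs at d10, and the part of these cells in the result was not tested. In such bulk samples fewer cells of a type and less RNA per cell cannot be told apart.

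In the count table, 15798 of the 37324 members with over 20 reads (42.3%) carried the counts of a neighbouring element in all 6 libraries, to within 1 read or 2%. Among all repeat elements with over 20 reads the share was 40.3%, so members were near the background. Such elements held 13.6% of member reads and 3.51% of all repeat reads. The latter total includes repeats of RNA genes, which hold most counts, so these 2 shares are not alike. One example surrounds MurERV4-int on chromosome 4 (chr4:135973181-136003262, mm10). There, 68 neighbouring elements of 10 classes, 23 to 1091 bases long and 14 of them members, each held 2134 to 2155 reads in ysE replicate A and 3376 to 3400 in replicate B. The same elements held at most 21 reads in mesoderm and 38 to 71 in cystic EBs. How the authors counted reads that join distant bases or map to several places is not given in the sources used here, and the cause was not tested. The names were therefore tested again without such elements and without the 20 kb window that held most reads of the name, both chosen after seeing the data, and the values are given beside several of the names described. Without the window, 13 of 250 names moved by over 1 on the log2 scale in cystic EBs against ysE, RLTR20A1 the most, from -1.82 to 0.65 and called in neither case, and RLTR9B went from -1.93 to -0.39 and lost its call.

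**Figure D2:**
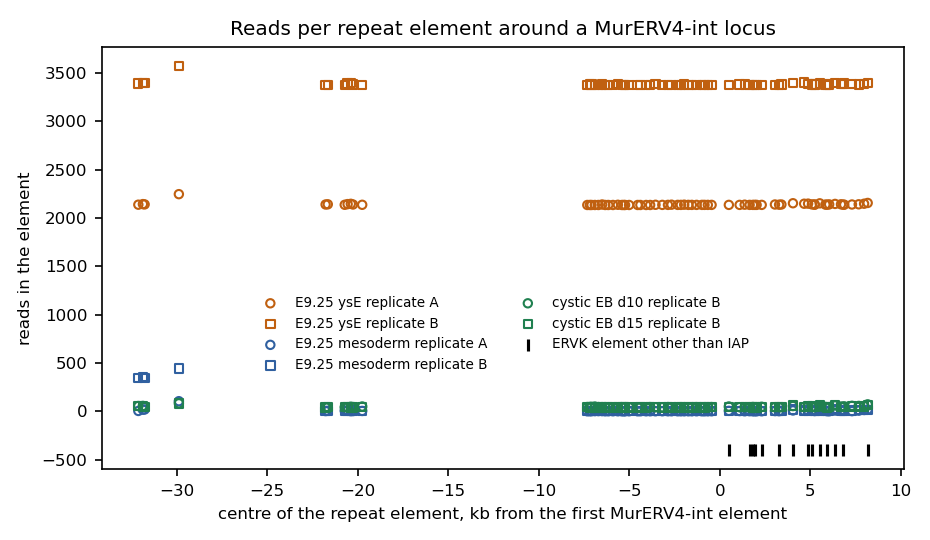
Reads in each repeat element (y axis) against the distance of its centre from the first MurERV4-int element of a locus on chromosome 4 (x axis, kb), for the 6 RNA libraries, with member elements ticked at the base. The 68 elements of 10 classes within 30.1 kb show nearly the same count in a library, near 2135 in ysE A and 3377 in ysE B.

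ysE and mesoderm share the strain and the stage, so this comparison addresses the tissue. Internal ETn/MusD parts fell in ysE, and MurERV4-int, the internal part of another ERVK group, rose. Of the 253 names that could be tested, 25 were higher and 22 lower in ysE by edgeR's quasi-likelihood test at a false discovery rate of 5%, against 10.6% higher and 9.3% lower among all 1193 repeat names. The members' shares were thus near the background, and their median log2 difference was -0.04 against -0.02. None of the 47 called names had libraries that overlapped, nor had any of the 238 called among all names. The higher and lower names were 2 and 0 without mesoderm A, 8 and 12 without mesoderm B, 29 and 15 without ysE A, 19 and 11 without ysE B, 9 and 8 without the d10 cystic EBs, and 11 and 10 without d15. Among internal parts 5 rose and 9 fell, and among LTRs 20 rose and 13 fell.

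MMETn-int stood at 2514 and 2209.8 CPM in ysE and at 9736 and 13143 in mesoderm. Both ysE libraries lay below both mesoderm libraries (log2 -2.28 ± 0.31, SE, n = 2 and 2, edgeR adjusted p = 0.0134). That call was lost without either mesoderm replicate, at -2.48 without A and -2.04 without B. ETnERV-int, a related internal part, stood at 760.3 and 689.8 against 2789.7 and 3557 (log2 -2.13 ± 0.26, adjusted p = 0.0104), a call lost without mesoderm A. ETnERV3-int was much scarcer, at 12.3 and 14.7 against 41.9 and 28.1 (log2 -1.38 ± 0.26, adjusted p = 0.0224), and its call was lost without ysE A, ysE B, mesoderm A or the d10 cystic EBs, at -1.06 to -1.51. ETnERV2-int was the exception in the family, with 90.2 and 57.9 in ysE and 55.7 and 72.7 in mesoderm, groups that overlap. ERVB7_1-LTR_MM and RLTR13G, with most of their reads beside these parts, fell too, with ERVB7_1-LTR_MM at 209 and 185 against 829 and 973 and RLTR13G at 133 and 103 against 489 and 674 (log2 -2.19 and -2.30), and both lost the call without mesoderm A. RLTRETN_Mm, at 151 and 119 against 299.8 and 291, missed the threshold (log2 -1.13 ± 0.33, adjusted p = 0.0645). ERVB7_2-LTR_MM, also mostly beside such parts, was level at 15.1 and 16.2 CPM against 15.1 and 13.4 (log2 0.13, adjusted p = 0.567), and was at -0.65 and called without its top window (adjusted p = 0.0408).

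MMERVK10C-int and RLTR10-int, internal parts of another ERVK group, were also lower in ysE. RLTR10-int stood at 118 and 118 CPM against 309 and 221 in mesoderm (log2 -1.17 ± 0.23, adjusted p = 0.0234), and missed the threshold on RefSeq scaling (log2 -0.86, adjusted p = 0.0611) and without either ysE library or mesoderm A. MMERVK10C-int stood at 587 and 563 CPM against 1208 and 905 (log2 -0.88 ± 0.17, adjusted p = 0.0227). Of its reads 19.6% lay in 1 window, and without that window the log2 difference was -0.46 with the call kept (adjusted p = 0.0258). On the scaling of RefSeq transcripts, described below, it missed the threshold (log2 -0.57, adjusted p = 0.0936), as it did without either ysE library, mesoderm A or either cystic EB library. RLTR45-int, at 104 and 57.5 against 216 and 189, had a log2 difference of -1.33 ± 0.28 (adjusted p = 0.0282), a call lost without either mesoderm or either cystic EB library.

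MurERV4-int rose in ysE as a name, with the rise held by few copies. It stood at 266 and 280.4 CPM in ysE, 61.9 and 65.3 in mesoderm, and 67.6 and 67.3 in cystic EBs, so ysE stood apart from both other groups. The log2 difference from mesoderm was 2.10 ± 0.10 (adjusted p = 0.00151). The 20 kb window with most of its reads, part of the chromosome 4 locus described above, held 41.3% of them. Without that window the difference was 1.02 and still called (adjusted p = 0.00483). Windows have fixed borders, so MurERV4-int elements of the same locus stayed in. They include chr4:136000001-136000140 and chr4:136000303-136000701, with 2140 and 2151 reads in ysE A and 6 and 4 in mesoderm A. The rise without the whole locus was not tested. Of 145 copies tested 77 lay above 0 in ysE against mesoderm, 9 of them called, beside 0.96% called higher among all repeat elements tested. The median of the 145 copies was 0.02, against -0.13 over all elements tested and -0.36 over all member elements. RMER16-int rose by 0.89 ± 0.12, from 105 and 124 in mesoderm to 215 and 208 in ysE (adjusted p = 0.0129), and by 0.76 without its top window. MYSERV-int, at 122 and 111 against 74.0 and 46.0, rose by 0.96 ± 0.24 (adjusted p = 0.0442), with 41.9% of its reads in elements that repeat an adjacent count. Several LTR names rested on such elements. RLTR19A rose by 2.26 with all elements and by 0.82 without those that repeat a neighbour, and RLTR20A4 went from 1.01 to -0.08. RLTR9C, chosen here after its values were seen, rose by 1.16 and turned to -0.98 without its top window.

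Of the 25 names higher in ysE, 15 stayed called in the same direction both without the top window and without repeated counts, as did 11 of the 22 lower names. Scaling on RefSeq transcripts moved the median of all repeat names from -0.02 to 0.30 and the members' calls to 48 higher and 8 lower. MMETn-int, ETnERV-int, ETnERV3-int, ERVB7_1-LTR_MM, ERVB4_1C-LTR_Mm and RLTR13G stayed lower in ysE and called under that scaling.

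**Figure D3:**
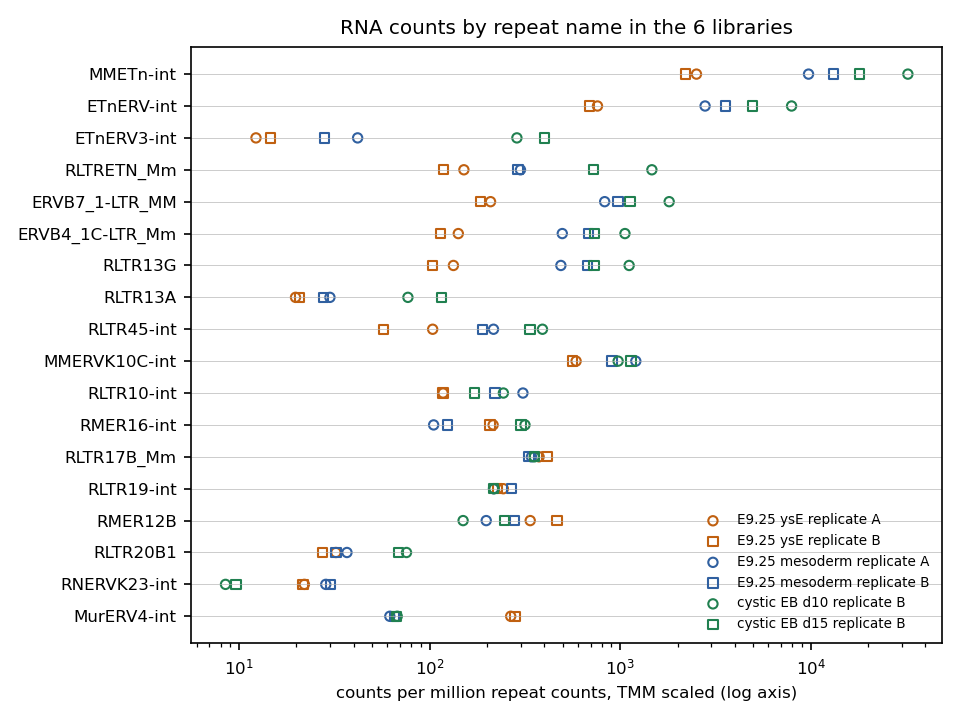
CPM (TMM scaled, log axis) of 18 repeat names in the 6 RNA libraries, 1 symbol a library. In MMETn-int, ETnERV-int, ETnERV3-int, RLTRETN_Mm, ERVB7_1-LTR_MM, ERVB4_1C-LTR_Mm and RLTR13G, ysE lies lowest and cystic EBs highest. MurERV4-int is high only in ysE among the 3 groups, and RLTR17B_Mm and RLTR19-int are level, with 333 to 413 and 216 to 268 CPM.

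Cystic EBs were compared with ysE to see whether the culture model matches the tissue it was meant to stand for. Internal ETn/MusD parts showed the largest rises, 8.89-fold to 25.5-fold in the 3 called names, and MurERV4-int was lower. Of 253 names, 49 were higher and 41 lower in cystic EBs, against a background of 16.9% higher and 17.2% lower among all names. The median log2 difference was 0.13 for members and 0.03 for all names. Internal parts rose more often than they fell, 16 against 6 of 36, while LTRs split evenly at 33 against 35 of 217.

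MMETn-int rose from 2514 and 2209.8 CPM in ysE to 32332 and 18071 in cystic EBs, a 10.7-fold difference (log2 3.42 ± 0.33, adjusted p = 0.00245). The d10 library was the higher of the pair, and both lay above every library of the other groups. ETnERV-int rose to 7933 and 4954 CPM (log2 3.15 ± 0.27, adjusted p = 0.00239). ETnERV3-int showed the largest rise of all members, from 12.3 and 14.7 to 287 and 401 CPM, or 25.5-fold (log2 4.67 ± 0.29, adjusted p = 9.38e-04). Here the d15 library was the higher. RLTRETN_Mm reached 1467 and 724 (log2 3.02 ± 0.35, adjusted p = 0.00362), ERVB7_1-LTR_MM 1808 and 1128 (log2 2.90), ERVB4_1C-LTR_Mm 1059.6 and 734 (log2 2.81) and RLTR13G 1115 and 728 (log2 2.96). ETnERV2-int again stood apart, at 79.4 and 54.9 CPM in cystic EBs, which overlaps the tissues. At most 0.70% of the reads of MMETn-int, ETnERV-int and ETnERV3-int, and 7.91% of those of RLTRETN_Mm, lay in elements that repeat an adjacent count. These 4 rises kept their call without any single library, without the top window, without repeated counts and on RefSeq scaling, where MMETn-int rose by 3.15.

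Other internal parts rose less. RLTR45-int went from 104 and 57.5 to 391 and 337 CPM (log2 2.17 ± 0.29, adjusted p = 0.00523). MMERVK10C-int went from 587 and 563 to 976 and 1141 (log2 0.88 ± 0.17, adjusted p = 0.0141) and missed the threshold on RefSeq scaling (log2 0.56, adjusted p = 0.0736). Of 8 internal ERVB parts 5 rose and 1 fell, a small group to set beside the 16.9% and 17.2% of all names. Without the top window ERVB5_1-I_MM-int, the one that fell, was at -0.38 (adjusted p = 0.403), and the rises of ERVB2_1-I_MM-int and ERVB4_3-I_MM-int were not called (adjusted p = 0.120 and 0.0816). Among LTRs apart from ETn, RLTR13A rose from 19.8 and 20.8 to 77.0 and 116 CPM (log2 2.24 ± 0.21, adjusted p = 0.00245), with 35.3% of its reads beside an internal ETn/MusD part. RLTR20B1 rose from 32.2 and 27.5 to 75.7 and 68.7 (log2 1.27 ± 0.14, adjusted p = 0.00342).

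MurERV4-int fell by 2.02 ± 0.10 on the log2 scale (adjusted p = 9.37e-04), and by 1.04 without its top window. That window leaves part of the chromosome 4 locus in, and the fall without the whole locus was not tested. By copy, 24 of 145 were called lower and 1 higher, beside 8.63% lower and 3.4% higher among all repeat elements tested. In cystic EBs over ysE 82 copies lay above 0 with a median of 0.23. The median was 0.18 over all elements tested and 0.60 over all member elements. Of the 3 internal MYSERV names, MYSERV-int (log2 -1.30) and MYSERV6-int (log2 -0.75) were called lower, while MYSERV16_I-int was at 0.09. RLTR31_Mur was at 29.3 and 35.5 CPM in ysE and at 8.60 and 8.52 in cystic EBs (log2 -1.92 ± 0.29, adjusted p = 0.00747), with 37.5% of its reads in 1 window, without which the difference was -1.08 and still called (adjusted p = 0.00634). RLTR9A2 fell by 2.29, but 65.9% of its reads lay in 1 window, and without it the difference was -0.98 and not called (adjusted p = 0.0722). RLTR9C fell by 1.67 and without its top window was called in the opposite direction, at 0.61 (adjusted p = 0.0298). Of the 49 higher names, 31 stayed called without the top window and without repeated counts, and of the 41 lower names 19 did. On RefSeq scaling the median of all names went from 0.03 to -0.29, and members split into 15 higher and 60 lower. Without d10 the counts were 13 and 12, and without d15 they were 17 and 12.

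**Figure D4:**
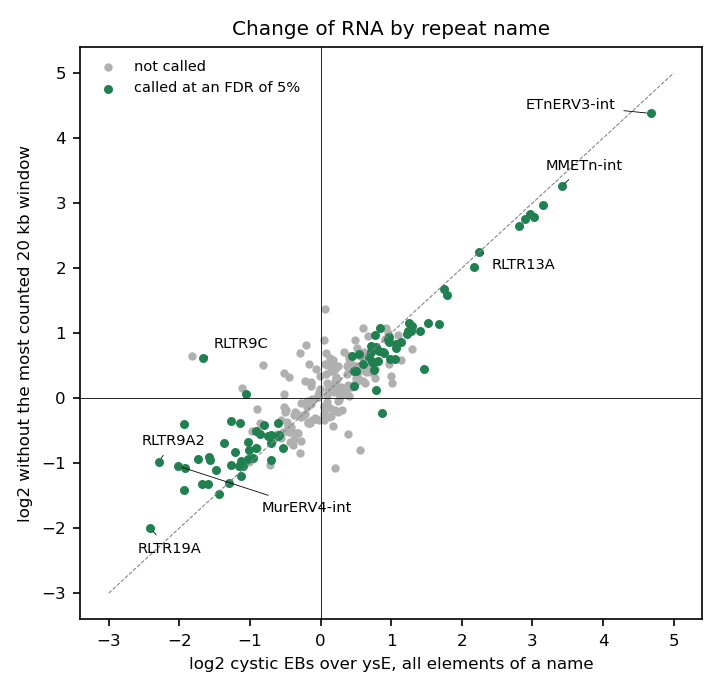
Log2 difference of cystic EBs over ysE for 250 member names, with all elements (x axis) and without the 20 kb window that holds most reads of the name (y axis), with the dashed line at equality. MMETn-int and ETnERV3-int stay near the line, at 3.26 and 4.38 without the window, while 40 names move by over 0.5 and RLTR9C crosses 0.

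Few names were called between cystic EBs and mesoderm, among members as among all names. Of 253 names 5 were higher (1.98%) and 2 lower (0.79%) in cystic EBs, beside 1.51% in either direction among all names. At an unadjusted p under 0.05 (edgeR) stood 57 of the 253 members and 232 of all 1193 names. The few calls therefore do not show that the 2 groups are alike. The higher names were 2 without d10, mesoderm A or mesoderm B and 8 without either ysE library, and the lower ones were 0 without d10 and 1 without any other library. ETnERV3-int stood at 287 and 401 CPM against 41.9 and 28.1 in mesoderm (log2 3.30 ± 0.27, adjusted p = 0.00314) and held its call in every alternative run, including without any single library. RMER16-int stood at 317 and 302 against 105 and 124 (log2 1.43 ± 0.12, adjusted p = 0.00314). RLTR13A, at 77.0 and 116 against 30.003 and 27.8, rose by 1.74 ± 0.21 (adjusted p = 0.0137), a call lost without either mesoderm library. RLTR13A2 and RLTR20B1 rose by 1.05 and 1.06. RNERVK23-int, a name of 35 elements, fell by 1.69 ± 0.14 (adjusted p = 0.00314), with 57.3% of its reads in 1 element, without which the difference was -0.80 and not called. RMER6B fell by 0.77 (adjusted p = 0.0389) and lost the call without its top window, without repeated counts and on RefSeq scaling.

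The 2 abundant ETn/MusD names were not called in that comparison. MMETn-int stood at 32332 and 18071 CPM in cystic EBs and 9736 and 13143 in mesoderm, so the groups did not overlap, with a log2 difference of 1.14 ± 0.30 (adjusted p = 0.119). ETnERV-int differed by 1.02 ± 0.25 (adjusted p = 0.102). RLTRETN_Mm, at 1467 and 724 against 299.8 and 291, differed by 1.89 ± 0.34 (adjusted p = 0.0510), just outside the threshold, and passed it on RefSeq scaling (adjusted p = 0.0170), without the top window (0.0233), without repeated counts (0.0471) and without repeats of RNA genes (0.0469). The ysE and mesoderm comparisons with cystic EBs share the cystic EB libraries.

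By family, the differences in RNA concentrated in ETn/MusD and its neighbours. The 4 internal ETn/MusD names summed to 3377 and 2972 CPM in ysE, 12623 and 16800 in mesoderm, and 40631 and 23481 in cystic EBs, with a median log2 of 3.28 for cystic EBs over ysE. The 13 ERVB LTR names summed to 432 and 388, 1435 and 1753, and 2976 and 1969, yet their median was 0.66, since ERVB7_1-LTR_MM and ERVB4_1C-LTR_Mm held most of the reads. The 23 RLTR13 names, with RLTR13G among them, summed to 464 and 433, 882 and 1041, and 1624 and 1278, and against ysE cystic EBs had 7 of these names higher and 1 lower, beside 16.9% and 17.2% of all names. RMER LTRs, 40 names and 60484 elements, summed to 2638 and 2982 in ysE and 2047 and 2174 in cystic EBs, with 2 names higher and 9 lower in the same comparison, the latter near the background. RLTR17, 4 names with 19588 elements, had no name called in any comparison with all elements, but without the top window RLTR17B_Mm was called in ysE against mesoderm (log2 0.39, adjusted p = 0.0398) and in cystic EBs against ysE (log2 -0.38, adjusted p = 0.0307), and RLTR17D_Mm in the latter, turning from 0.18 to -0.44 (adjusted p = 0.0426). MMTV, the mouse mammary tumour virus, had 28 internal elements with 2.01 to 5.75 CPM.

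Single copies were tested as well, 20841 member elements among 239554. The filter on low counts keeps a copy with enough reads in 1 group alone. Counts of copies and shares by family can therefore lean towards the group with most reads. In cystic EBs against ysE, 1569 were higher and 1000 lower, beside 3.4% higher and 8.63% lower among all elements tested. Of these 2569, 578 repeated the counts of a neighbour. Among the remaining 1417 higher elements, 597 were ETn/MusD (42.1%, against 6.77% of all member elements tested), 227 ERVB (16.02% against 4.79%) and 162 RLTR13 (11.4% against 5.40%). Among the 574 lower ones 170 were RMER (29.6%), near the 24.2% of RMER among the elements tested. In ysE against mesoderm 107 were higher and 152 lower, beside 0.96% and 0.283%, and of the 133 lower elements that repeat no neighbour 50 were ETn/MusD and 47 ERVB. Between cystic EBs and mesoderm edgeR called none, beside 0.0% among all elements, with 4071 at an unadjusted p under 0.05. Every one of these calls was lost when any 1 library was left out and under the replicate block.

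Most MMETn-int copies tested stood higher in cystic EBs than in ysE. Copies could pass the filter by cystic EB reads alone, so counts by sign can lean that way, and copies are no replicates. Of 465 MMETn-int elements tested, 418 were higher in cystic EBs than in ysE by sign, 274 of them called and 16 called lower, with a median log2 of 2.79. For ETnERV-int 309 of 340 were higher, 184 called, and for ETnERV3-int 69 of 82, 35 called. The 5 elements with the most reads were all MMETn-int. The highest, chr13:113718730-113722014, is 3285 bases long and held 11263 and 15350 reads in ysE, 45014 and 66910 in mesoderm, and 110835 and 59165 in cystic EBs (log2 2.40 over ysE, adjusted p = 0.0192). The copies chr5:88164400-88167684, chr14:112368067-112371351, chr12:68558717-68561675 and chrX:28843894-28847178 differed by 2.47, 2.73, 2.62 and 2.68. All lie outside genes, as the table holds intergenic elements only, and near-identical copies may share reads.

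Some copies had no read in 1 of the groups. The ERVB4_2-I_MM-int element chr2:176895444-176902810, an internal part 7367 bases long, held 0 reads in both ysE libraries, 7 and 12 in mesoderm, and 160 and 138 in cystic EBs. That is at least 40.01-fold higher in cystic EBs than in ysE, against a limit of 3 reads per ysE library and as the lowest of 3 scalings (element TMM, name TMM and depth alone), which applies to the limits that follow too. A RMER4B element at chr12:105964707-105965208 held 292 and 569 reads in ysE, 2 and 2 in mesoderm, and 0 in both cystic EB libraries, at least 97.4-fold higher in ysE than in cystic EBs, but it lies in a run of 8 neighbouring elements of 5 classes with like counts. A pair of MLTR18D_MM elements on the X chromosome (chrX:73223883-73224590 and chrX:73231914-73232622) held 606 and 813, and 602 and 813 reads in ysE, none in mesoderm, and 7 to 11 in cystic EBs, the second of them in a run of 4 elements of 4 classes with like counts. MLTR25A at chr6:57538628-57539353 held 1246 and 2291 in ysE, 6 and 2 in mesoderm and none in cystic EBs, at least 404-fold higher in ysE, and it too lies in a run of 8 elements of 6 classes with like counts.

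CpG methylation of members was lowest in ysE, as it was over all repeats. Summed over the member elements with calls, the ysE libraries (CxF and FxC) had 67.2% and 59.3% of reads at CpGs methylated. The liver libraries had 77.8% and 79.7%, and the cystic EB libraries 85.6% and 81.9%. The mean of ysE was 63.2% ± 5.54, that of liver 78.7% ± 1.33 and that of cystic EBs 83.7% ± 2.61 (SD, n = 2). All other repeats pooled, IAP included, had 59.5%, 76.2% and 82.3%, and IAP elements alone 81.7%, 88.7% and 92.7%. Members lay between this pool and IAP in each tissue. By class, ERV1 elements were above members in each tissue, at 74.8%, 84.2% and 88.5%. ERVL elements, at 57.7%, 76.8% and 86.2%, were above them in cystic EBs only, and MaLR and L1 elements were below them in each tissue. Internal parts were more methylated than LTRs, at 72.1% against 58.8% for ysE, 83.8% against 76.1% for liver and 88.4% against 81.0% for cystic EBs. Levels were compared on the 16 chromosomes with calls in all 6 libraries. Chromosomes 13, 15, X and Y are not among them, so the MMETn-int copy with the most reads, on chromosome 13, has no methylation value. Of 172030 member elements on the chromosomes used, 34691 (ysE CxF) to 48721 (cystic EB CxF) had a read at a CpG. The levels rest on 208581 to 394470 reads per library, with 5.0 to 8.1 reads per covered element. Intervals would cover counting error only.

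By name, 161 of 242 names were lower in ysE than in liver by limma and none higher, beside 71.2% lower among all names. Of 162 names with at least 200 reads in every library, all 162 had both ysE libraries below both liver libraries, as had 523 of 527 (99.2%) among all names. The median log2 odds difference was -1.20 for members and -1.24 for all names, and once each library was centred on its median name no member was called. The count was 27 without ysE FxC, 37 without liver CxF and 5 without liver FxC. In cystic EBs against ysE 230 names were higher and none lower, beside 95.6%, with a median of 1.65 against 2.10 for all names. Centred on the median name, 0 were higher and 2 lower, and over elements covered in all 6 libraries 118 were higher. In cystic EBs against liver 7 names were higher, beside 8.44%, and the count ran from 0 to 28 as single libraries were left out.

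The gap between ysE and liver ran from 7.27 to 25.3 points among the 10 names with the most RNA, and was narrowest in the 3 highest of them. ETnERV-int had ysE libraries at 82.6% and 78.1%, liver libraries at 87.5% and 87.7% and cystic EB libraries at 91.8% and 89.99%, a gap of 7.27 points between ysE and liver. MMETn-int was 78.8% and 75.8%, 86.0% and 84.9%, and 90.3% and 88.8%, MMERVK10C-int had 79.9% and 74.6% in ysE and RLTR10-int 80.9% and 77.3%. Together with ETnERV-int and RLTR20A4, they were the 5 names highest in ysE among those with at least 200 reads in every library. ETnERV2-int and ETnERV3-int were less methylated than these relatives. ETnERV2-int had ysE at 57.8% and 50.6%, liver at 66.6% and 68.7%, and cystic EBs at 80.1% and 77.6%. ETnERV3-int had ysE at 48.0% and 56.4%, liver at 78.3% and 72.3%, and cystic EBs at 85.5% and 81.5%. The ETn LTR RLTRETN_Mm, at 61.4% and 52.6% in ysE, was lower than MMETn-int and ETnERV-int and overlapped ETnERV2-int and ETnERV3-int.

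**Figure D5:**
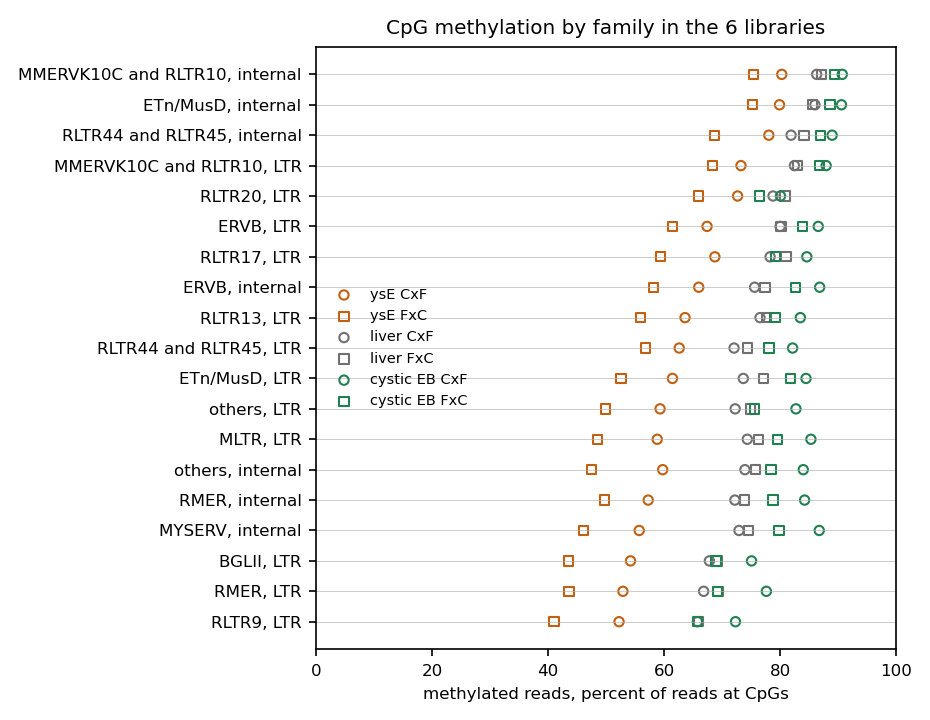
Methylated reads as a percent of reads at CpGs (x axis) for each family with at least 200 reads in every library, internal parts apart from LTRs, 1 symbol a library. Both ysE libraries lie left of both liver libraries in every family shown, and the ysE means run from 46.6% in RLTR9 LTRs to 77.9% in the internal parts of MMERVK10C and RLTR10.

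At the other end, RMER17D2 was 36.7% and 31.2% methylated in ysE and 53.6% and 53.5% in liver. It was the lowest in ysE among names with at least 200 reads in every library, the limit for the rankings here. ERVB7_2B-LTR_MM followed at 38.7% and 34.1%, then RMER17A, RMER17A2 and ERVB7_2-LTR_MM at means of 36.5%, 37.2% and 39.1%. Among names with at least 200 reads in every library, the widest gaps of liver over ysE were 33.5 points in ERVB7_2-LTR_MM and 31.9 in RMER6-int. The narrowest among them was 6.43 points in RLTR20A4. RLTR20A4 also had cystic EBs, at 81.4% and 78.5%, below both liver libraries at 83.8% and 84.8%. MurERV4-int, whose RNA was high in ysE at E9.25, was 57.6% and 49.0% methylated in ysE at E12.5. Liver had 77.6% and 78.6% and cystic EBs 87.0% and 77.6%. These percentages cover all its copies with calls, while much of its ysE RNA lay at the chromosome 4 locus, whose methylation was not read apart.

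Across the 162 names with enough reads, the RNA level per 100 kb and the methylation of the same tissue had Spearman's rho of 0.15 in ysE and 0.24 in cystic EBs, given as a description across names that share libraries and, in part, loci. The log2 difference in RNA between cystic EBs and ysE and the gap in methylation had a rho of -0.22. ETnERV-int and MMETn-int, both higher in RNA in cystic EBs than in ysE, were also higher in methylation there by 10.6 and 12.2 points, and ETnERV3-int by 31.3 points. Relative to the median name of each library the first 2 were lower, by log2 odds of -0.83 and -0.80. RNA and methylation came from different stages, strains, clones and, in part, different copies of a name, so the values are set side by side only. The element before Gm52719 had all of 63 and 71 reads at CpGs methylated in cystic EBs, against 16 of 23 and 7 of 8 in ysE, while holding 768 and 557 RNA reads in cystic EBs. The other printed windows had fewer reads at CpGs and, where both tissues were covered, a lower share of the summed reads methylated in cystic EBs than in ysE. The element before Gm34581 had 11 of 21 and 1 of 1 methylated in cystic EBs against 26 of 29 in ysE FxC, with none covered in ysE CxF, and that before LOC108167564 had 1 of 4 in cystic EB FxC against 3 of 3 in ysE FxC. That before Gm38894 had 3 of 4 in cystic EB CxF against 4 of 4 in ysE FxC, and that before Gm51895 had no read.

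Genes linked to silencing, DNA methylation and chromatin were read from a list of 36, of which 34 were found. The list includes general factors and is not particular to ERVK copies. In cystic EBs 14 were higher and 4 lower than in ysE by edgeR, beside 33.7% and 27.2% among all RefSeq transcripts. Dnmt3l, the cofactor of de novo DNA methylation, stood at 30.7 and 12.505 RPKM in cystic EBs and at most 0.078 in the tissues (log2 10.2 ± 0.84 over ysE, adjusted p = 8.98e-05). Dnmt3b, a de novo methyltransferase, stood at 39.3 and 17.4 against 7.39 and 8.21 in ysE (log2 1.52 ± 0.36, adjusted p = 0.00849). Atrx, a chromatin remodeller that acts with the histone variant H3.3, rose by 1.99 ± 0.23, and H3f3a, which encodes that variant, by 1.16 ± 0.16. The 4 that fell were Ehmt2, a methyltransferase of H3K9 (log2 -1.21), Dnmt3a (-0.78), Tex19.1 (-0.74) and Chaf1a, a subunit of the chromatin assembly factor CAF-1 (-0.63). Trim28, the corepressor of KRAB zinc finger proteins, was at 198 and 128 against 78.2 and 92.4 (log2 0.59 ± 0.24, adjusted p = 0.0700), and Setdb1, its H3K9 methyltransferase, at 17.7 and 13.3 against 9.34 and 10.95 (adjusted p = 0.267).

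In ysE against mesoderm 4 of the listed genes were higher and 6 lower, beside 22.8% and 26.3%. Tex19.1, a germline and placenta gene that restrains retrotransposons, was at 9.39 and 8.41 RPKM in ysE and 0.952 and 0.940 in mesoderm (log2 3.47 ± 0.20, adjusted p = 4.31e-05). Dnmt3a rose by 1.04 and Ehmt2 by 0.95, while Atrx fell by 1.58, H3f3a by 1.30 and Cbx5, which encodes the heterochromatin protein HP1 alpha, by 1.15. In cystic EBs against mesoderm 12 were higher and 2 lower, beside 21.1% and 21.4%, among them Dnmt3l (8.68), Tex19.1 (2.73) and Dnmt3b (1.94) on the log2 scale. The part of these genes in the ERVK result was not tested.

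H3K4me3, a mark of active promoters, was measured in 1 library of E12.5 yolk sac. Of 22343 peaks 505 (2.26%) overlapped a member by at least 1 base, touching 640 elements (0.288%) of 166 names, and 23 of these elements had no RNA read. The share over all repeat elements was not counted, so neither excess nor lack in members can be read from this. RMER17C had the most elements in a peak, 25 of 4768, followed by RLTR17B_Mm with 24 of 17112. Per element the share was higher in other names, among them MMERVK10D3_I-int, 12 of 415 (2.89%), and RLTR44-int, 15 of 572 (2.62%). It was higher still in RLTR42, 9 of 202 (4.46%), and RLTR46A2, 4 of 52 (7.69%). None of the 5 printed windows lay in a peak.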

How the data were processed

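RNA libraries were strand-specific (dUTP) and aligned by the authors to mm10 with GSNAP 2012-12-12. The deposited repeat table holds raw counts of reads per RepeatMasker element outside genes, with the Smith-Waterman score of each repeat match. The element strand is not given there. For RefSeq transcripts the authors deposited raw counts and RPKM. The deposited methylation calls, made with BisSNP, give the percent of methylated reads and the count of reads at each CpG. H3K4me3 peaks are 1 pooled library of native ChIP called with MACS 1.4.2, with the deposited score of each peak.

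Counts were summed by repeat name and tested across all 1193 names with edgeR 4.0.16 (quasi-likelihood, TMM factors, all 3 groups in 1 fit, false discovery rate of 5%). Single elements and RefSeq transcripts were tested alike. The SE is that of the fitted log2 difference. Methylated and unmethylated reads were summed by name, at least 20 reads in every library were required, 2 reads were added to both, and the log2 odds were tested with limma 3.58.1 over 948 names. The tests across names, elements and transcripts were also run on simulated counts, drawn with levels and spread taken from these data.

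Members, gene lists, families and names were chosen with earlier results of these data known. The names described are the 10 with the highest mean CPM, up to 4 rises and 4 falls per comparison among called names that do not overlap and reach 1 CPM in 1 group, the families, and the 5 lowest and highest in methylation and in the gap to liver among names with 200 reads. DESeq2 1.42.0, other scalings, filters, single libraries left out and the replicate number as a block were the alternatives. Leaving out repeated counts, leaving out the top 20000 bases of a name, RefSeq scaling and elements covered in all 6 libraries were added after seeing the data. With 2 libraries a group, an exact permutation test cannot go below p = 0.333 and was not used. Exon counts were not used.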

Additional observations from a re-analysis of the deposited data

How the results depend on the processing

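Of 1403 values of named repeats under an alternative, for comparisons called with all libraries and elements, 1171 kept direction and call, 206 kept the direction but lost the call and 26 reversed. Comparisons not called there were left out of this count and could turn too, as ERVB7_2-LTR_MM did in cystic EBs against ysE, from -0.20 to 0.82 without its top window and 0.71 without repeated counts. Names higher in ysE than in mesoderm, 25, were 49 with DESeq2, 14 with only the groups compared, 48 on RefSeq scaling and 2 to 29 without single libraries, and those lower, 22, were 46, 13, 8 and 0 to 15, and 14 without repeated counts. Higher in cystic EBs than in mesoderm, 5 became 24 with DESeq2, 8 with only the groups compared, 10 without the top element or the top window, 11 without repeated counts and 2 to 8 without single libraries, and lower, 2 became 8, 1, 0, 1 and 0 to 1. Higher in cystic EBs than in ysE, 49 became 15 on RefSeq scaling and 13 to 48 without single libraries, and lower, 41 became 12 to 44.

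Single elements called in ysE against mesoderm, 107 and 152, became 479 and 808 with at least 10 counts per library, 379 and 690 without repeated counts and, for lower, 63 on RefSeq scaling. For cystic EBs against mesoderm, 0 and 0 became 170 and 131, and 310 and 88. For cystic EBs against ysE, 1569 and 1000 became 2687 and 1658. All element calls were 0 (0 to 0) without any single library and with the replicate block. With the replicate block the lower names in cystic EBs against mesoderm were 1, and silencing genes in that comparison 6 higher and 1 lower in place of 12 and 2. Deviations of libraries with the same letter or cross had correlations of 0.0229 in RNA and -0.0379 to 0.0055 in methylation. With 2 libraries a group, each value rests on 1 difference per tissue and cannot show that libraries are unpaired. In methylation the labels CxF and FxC are the cross, which ysE, liver and cystic EB libraries share. Without single libraries the silencing genes called were 3 to 8 higher in ysE than in mesoderm, 5 to 14 higher and 1 to 4 lower in cystic EBs than in mesoderm, and 9 to 16 higher and 2 to 7 lower than in ysE.

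Names lower in methylation in ysE than in liver, 161, were 0 after centring on the median name, 51 over elements covered in all 6 libraries and 5 to 192 without single libraries. Higher in cystic EBs than in liver, 7 became 1 at 10 reads per name, 13 at 100 reads, 0 centred, 1 over covered elements and 0 to 28 without single libraries, and lower, 0 to 1. Higher in cystic EBs than in ysE, 230 became 0 centred and 118 over covered elements, with 2 lower when centred. Mean methylation was 72.5% in ysE as a median over elements of at least 10 reads, 82.8% and 84.4% in liver over elements of at least 5 and 10 reads and 77.3% without calls over 20 reads, and 87.9% and 89.0% in cystic EBs.

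Centring reversed the log2 odds of cystic EBs over ysE for ERVB4_1C-LTR_Mm (-0.61), ERVB7_1-LTR_MM (-0.54), ETnERV-int (-0.83), MMERVK10C-int (-0.74), MMETn-int (-0.80), MurERV4-int (-0.062), RLTR10-int (-0.80), RLTR13G (-0.33), RLTR17B_Mm (-0.73), RLTR17D_Mm (-0.035), RLTR20B1 (-0.88), RLTR31_Mur (-0.42), RLTR45-int (-0.76), RLTR9A2 (-0.95), RLTRETN_Mm (-0.23), RMER16-int (-0.14), RMER17A2 (-0.60), RMER17A (-0.38) and RMER17D2 (-0.36). It also reversed ysE against liver for ERVB4_1C-LTR_Mm (0.19), RLTR17B_Mm (0.20), RLTRETN_Mm (0.070), RMER17A2 (0.12) and RMER17D2 (0.12). By construction centring removes a shift shared by all names. Leaving out repeated counts reversed RLTR20A4 RNA, to -0.079 in ysE against mesoderm and 0.11 in cystic EBs against ysE. For the other changes the cause was not tested. With 2 libraries a group, 1.80 to 2.21 reads per CpG call and shared sequence between copies, single copies are the least certain values here.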
